A study of Cyprinus carpio with 6 samples.

Results

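The 100 most abundant mRNAs of the juvenile common carp (Cyprinus carpio) gonad are described here across 6 RNA-seq libraries. An mRNA is a feature whose ID begins with CAFS_CommonCarp_T_, and its abundance in a library is given in CPM, the counts on the feature per 1000000 counts on all features of that library. They were chosen by mean CPM over the 6 libraries, of which the 100 highest were kept, of 49436 mRNA IDs and 60206 features in all. Both groups were fish of the FFRC No. 2 strain (FFRC in the labels) at 8 weeks post hatching, sampled 24 h after an intraperitoneal injection. The 3 control libraries (control 1, 2 and 3, labelled WT) came from fish injected with H2O, and the 3 treatment libraries (igf3-dsRNA 1, 2 and 3, labelled igf3-knockdown) from fish injected with igf3-dsRNA at 5 μg/g body weight. The control fish received no other dsRNA, so the injection of dsRNA as such and the targeting of igf3 cannot be told apart. The methods give 9 fish sampled per group and 6 individuals behind the RNA-seq, which is the number of libraries. The sex of the gonads is not given in the sources used here either.

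In most tissues a small set of transcripts takes a large part of the mRNA pool, and genes used by every cell, such as those for ribosomal proteins, translation factors and the cytoskeleton, commonly stand near its top. In a gonad, germ cells and the somatic cells that surround them both contribute RNA. The ligand targeted here, igf3, is an insulin-like growth factor of fish that is known from the gonad, where it takes part in germ cell development. The RefSeq gene table at hand held none of the feature IDs (0 of 60206). The mRNAs are therefore given by ID, without gene names or functions, and neither igf3 nor markers of gonad cell types were analysed here in the libraries. In bulk tissue, fewer cells of a type and less RNA per cell cannot be told apart.

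Counts on features summed to 2064856 to 3166031 per library. In the deposited counts, 91.4 to 92.6% of the uniquely placed read pairs of good quality fell on no feature. The library kit named in the methods marks the strand, but how the counting treated strand is not given in the sources used here, and its part in the ranking was not tested. With the opposite strand setting, the counts would be of reads antisense to the mRNAs. Abundance therefore refers to the counted pairs. Control 2 stood apart from the other libraries, with 36.7% of its counts on mRNAs, against 43.6 to 50.8% in the other 5.

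The 100 mRNAs made up 0.303% of the 32959 mRNAs with a count in any library and held 38.4 to 47.4% of all mRNA counts. Mean CPM fell from 15708 for the first to 613 for the last, a 25.6-fold range, with a median of 963. Only 8 had a mean above 5000 CPM and 48 a mean above 1000 CPM. The first 14 held 50% of the summed abundance of the 100. The mRNAs were selected on these values, which are given as a description. Every one of the 100 was counted in every library, with 432 to 58075 counts, so counting error alone (a coefficient of variation of at most 4.81%, at the lowest count) was small.

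**Figure D1:**
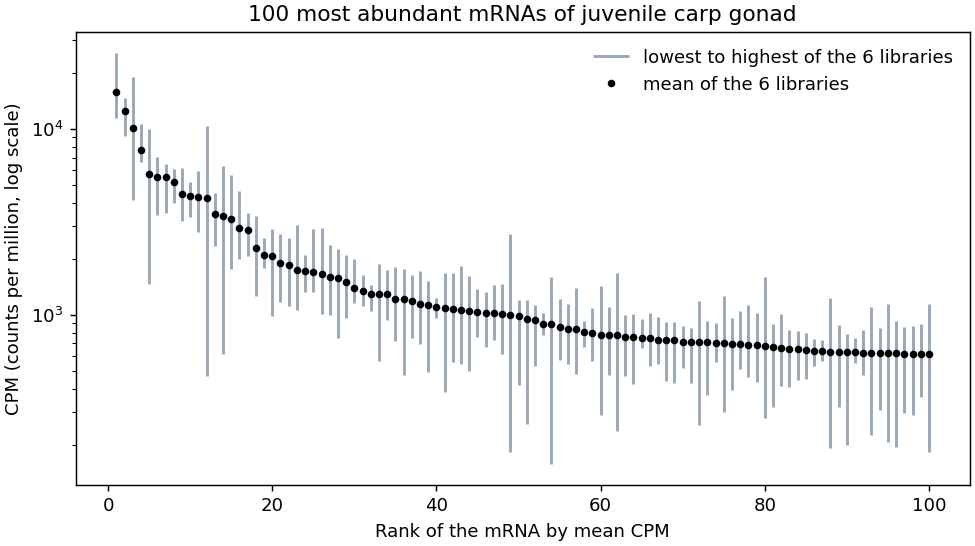
CPM on a log scale (y axis) against rank by mean CPM (x axis) for the 100 most abundant mRNAs. Points are means of the 6 libraries and vertical lines run from the lowest to the highest library; the means run from 15708 to 613 CPM and some lines, such as that at rank 12, span over 10-fold.

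CAFS_CommonCarp_T_00255759 was the most abundant mRNA, at 13277, 11493 and 15951 CPM in the libraries control 1 to 3 and at 25635, 14203 and 13688 CPM in the libraries igf3-dsRNA 1 to 3. The groups overlapped, and igf3-dsRNA 1 alone lay above the other 5 libraries. It took 2.70 to 5.81% of the mRNA counts of a library and held rank 1 or 2 among the mRNAs of each. The second, CAFS_CommonCarp_T_00187826, was steadier, at 14429, 11055 and 9183 CPM in the control libraries and 13590, 14638 and 12119 CPM in the treatment libraries. It was in the first 3 ranks of every library. CAFS_CommonCarp_T_00077237 followed at 7673, 4152 and 13127 CPM in the control libraries and 18947, 6209 and 10620 CPM in the treatment libraries. Its highest library, igf3-dsRNA 1, was 4.56 times its lowest, control 2, and both groups spanned wide ranges that overlapped.

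CAFS_CommonCarp_T_00113638 held a place between 3 and 5 in every library. It had 7225 ± 713 CPM in the control group and 8228 ± 2023 CPM in the treatment group (SD, n = 3 each), with igf3-dsRNA 3 the highest at 10560.1 CPM. CAFS_CommonCarp_T_00106223 had 5731, 1470.3 and 4338 CPM in the control libraries and 9973, 5644 and 6938 CPM in the treatment libraries. All treatment libraries but igf3-dsRNA 2 were above all control libraries, and control 2 was far below the rest. The mRNAs at ranks 6 to 10 lay between 3184 and 7022 CPM in every library. They were CAFS_CommonCarp_T_00054336, CAFS_CommonCarp_T_00237809, CAFS_CommonCarp_T_00232191, CAFS_CommonCarp_T_00188739 and CAFS_CommonCarp_T_00035625. In each of these 5 the groups overlapped, and the highest library was 1.52 to 2.04 times the lowest.

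**Figure D2:**
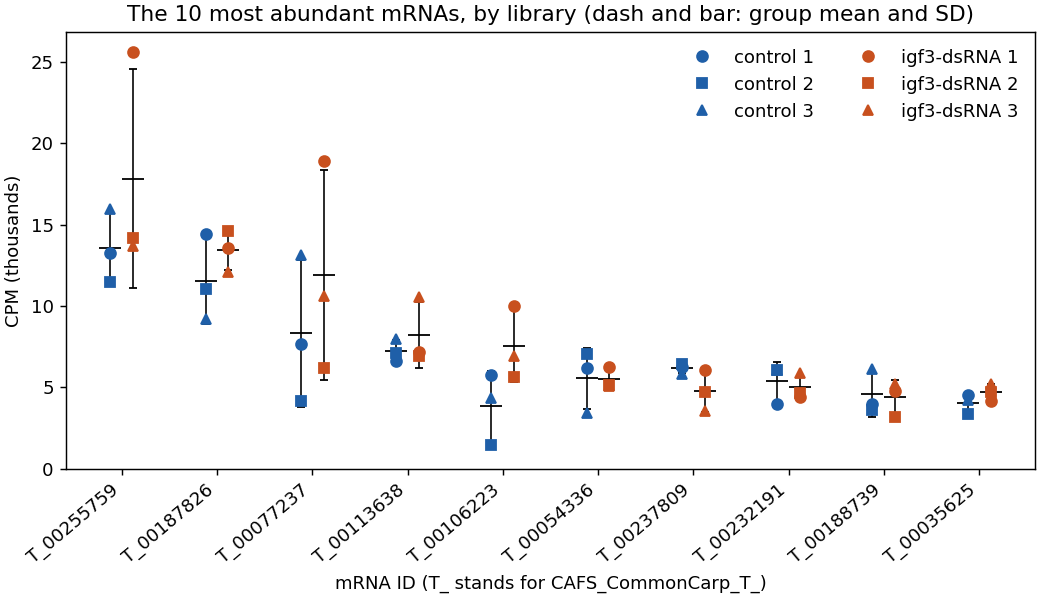
CPM divided by 1000 (y axis, from 0) of the 10 most abundant mRNAs (x axis) in each of the 6 libraries. Symbols are libraries, blue for control and orange for igf3-dsRNA, dashes are group means and bars the SD (n = 3). The library igf3-dsRNA 1 stands above the other libraries for the mRNAs at ranks 1, 3 and 5.

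Neighbours among the 10 changed places between libraries. The mRNA ranked higher took more counts than the next in 4 of the 6 libraries, or in 5 for ranks 4 and 5. Mean CPM was 5682 ± 2812, 5517 ± 1254, 5472 ± 1135 and 5182 ± 931 at ranks 5 to 8 (SD over the 6 libraries), so the order of these 4 was within their spread. At the end of the list the steps were smaller still. The mRNAs at ranks 98, 99 and 100 had means of 615, 614 and 613 CPM, and the first 3 left out, CAFS_CommonCarp_T_00014842, CAFS_CommonCarp_T_00143824 and CAFS_CommonCarp_T_00263344, had 610.3, 608 and 607 CPM. The last member, CAFS_CommonCarp_T_00283176, ranged from 183 CPM in control 2 to 1136 CPM in igf3-dsRNA 3. The boundary of the list was thus narrower than the spread of a single mRNA between libraries.

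Membership depended on the libraries. Between 73 of the 100 mRNAs (control 2) and 86 (control 1) were also among the 100 most abundant mRNAs of a library taken alone. Of the 100, 48 were within the first 100 mRNAs in all 6 libraries and 81 within the first 200, and the lowest rank of any was 547. Ranking by the control libraries alone kept 90 of the 100 and ranking by the treatment libraries alone kept 95.

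Longer transcripts collect more read pairs, and the ranking by CPM makes no allowance for it. The 100 mRNAs were 693 to 9016 bp long, with a median of 2932 bp, against a median of 2066 bp (quartiles 1232 and 3340 bp) for all mRNAs with a count. Of the 100, 66 were longer than that median and 22 were 5000 bp or longer, compared with 9.58% of all mRNAs with a count. Only 5 were shorter than 1000 bp, compared with 17.1%. In RPKM, the deposited values per kilobase of feature, 65 of the 100 were also among the 100 highest mRNAs, and all 100 were among the highest 536. The 35 that were displaced gave way to shorter mRNAs of 386 to 1735 bp.

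CAFS_CommonCarp_T_00255759 also led per kilobase, with a mean of 152 RPKM. CAFS_CommonCarp_T_00113638 moved from rank 4 to rank 2, at 131 RPKM and a length of 1441 bp, and CAFS_CommonCarp_T_00077237 was at rank 3 with 127 RPKM and 1933 bp. In contrast, CAFS_CommonCarp_T_00187826, at rank 2 by CPM and 7481 bp long, was at rank 8 with 41.2 RPKM. CAFS_CommonCarp_T_00283176, the longest of the 100 at 9016 bp, had the lowest mean RPKM, 1.65.

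LncRNAs, the features with MSTRG IDs, were the part of the table most like these mRNAs in abundance. In CPM, the most abundant mRNA came after 7 lncRNAs, of which the first had a mean of 32377 CPM, and 44 of the 100 mRNAs were among the 100 most abundant features. The last of the 100 mRNAs was at rank 181 of all features, with 81 lncRNAs above it. By the same rule, the 100 most abundant lncRNAs were 202 to 996 bp long, with a median of 299.5 bp, so the mRNA list and the lncRNA list were far apart in length. The lncRNA list fell faster, to 492 CPM at its last rank.

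The share of counts on features held by the 100 mRNAs was 17.9, 14.5 and 18.4% after H2O (control 1 to 3) and 20.9, 18.4 and 19.5% after igf3-dsRNA (1 to 3). It was lowest in control 2, and the groups overlapped narrowly, at control 3 and igf3-dsRNA 2. The group means were 16.9 ± 2.15% and 19.6 ± 1.29% (SD, n = 3 each), and the difference of 2.67 percentage points had a p of 0.2 in a two-sided exact permutation test, in which 0.1 is the smallest p that 3 libraries against 3 allow. The difference was 1.44 percentage points without control 2 (p = 0.3 in the same permutation test) and 2.00 without igf3-dsRNA 1 (p = 0.5 in that test). With all 6 libraries but without the most abundant mRNA it was 2.24 percentage points, with a p of 0.1 in the same permutation test. The groups then did not overlap, but no other single mRNA was left out in this way. With all 100 the overlap was only 18.42% in control 3 against 18.36% in igf3-dsRNA 2. Its loss is thus not particular to the most abundant mRNA. The 100 most abundant lncRNAs held 53.6% of the counts in control 2 and 34.4 to 45.4% in the other libraries. As a share of mRNA counts alone, the 100 mRNAs held 39.9 ± 0.717% in the control group and 42.6 ± 4.55% in the treatment group (SD, n = 3 each, exact permutation p = 0.4). There control 2 no longer stood apart, and igf3-dsRNA 1 was the highest at 47.4%.

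**Figure D3:**
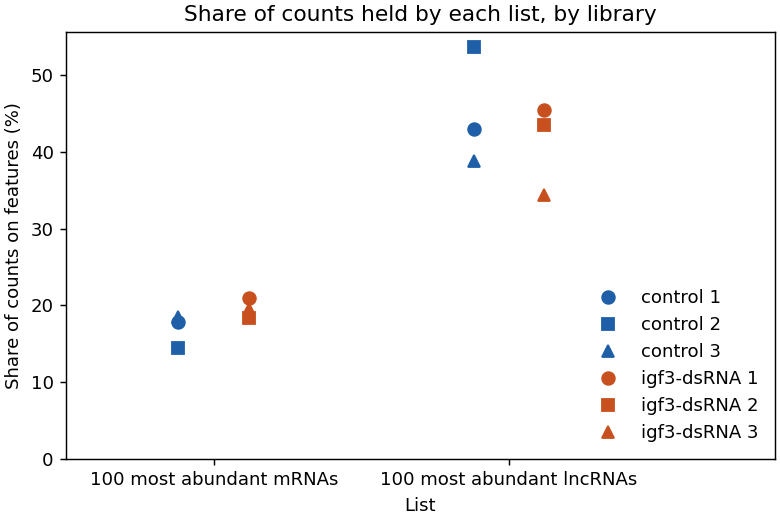
Share of counts on features in percent (y axis, from 0) held by the 100 most abundant mRNAs and by the 100 most abundant lncRNAs (x axis), 1 symbol per library, blue for control and orange for igf3-dsRNA. In control 2 the mRNA share is the lowest (14.5%) and the lncRNA share the highest (53.6%).

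The 100 mRNAs differed widely in how much they varied between libraries. The highest library was 1.29 to 22.3 times the lowest, with a median of 2.33 times, and this ratio was under 2 for 33 of the 100 and over 4 for 18. The coefficient of variation (the SD divided by the mean) of CPM over the 6 libraries was 10.1 to 91.9%, with a median of 29.4%. It was under 20% for 17 of the 100 and over 50% for 13. For the next 900 mRNAs, down to 83.2 CPM, the median was 34.3%, with 12.1% of them under 20% and 17.2% over 50%. For the 100 most abundant lncRNAs the median was 33.2%, and 24 were over 50%. The features of a list are not replicates and share the same 6 libraries, so these differences were not tested.

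The steadiest was CAFS_CommonCarp_T_00141001, at 905, 963 and 833 CPM in the control libraries and 877, 774 and 1026 CPM in the treatment libraries, a coefficient of variation of 10.1%. CAFS_CommonCarp_T_00269966 and CAFS_CommonCarp_T_00280121 followed, with 10.96 and 11.12%, and ranges of 549 to 745 CPM and 566 to 732 CPM. In each of the 3 the groups overlapped. After TMM scaling, edgeR's adjustment of library sizes, they spread more, as control 2 was then the highest library for each of them, at 1236, 769 and 941 CPM.

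The most variable was CAFS_CommonCarp_T_00110191, at rank 12 by mean CPM. It had 6284, 468 and 1096 CPM in the control libraries and 5789, 10416 and 1474 CPM in the treatment libraries, with the highest library 22.3 times the lowest. High and low libraries were found in both groups. CAFS_CommonCarp_T_00064822 owed its place at rank 49 largely to control 2, with 2709 CPM there, 183 CPM in control 3 and 658 to 1023 CPM in the other libraries. CAFS_CommonCarp_T_00210814 had 4117, 1330 and 612 CPM in the control libraries and 1874, 6131 and 6288 CPM in the treatment libraries, and the groups overlapped. No single library held over 50% of the summed CPM of any of the 100 (at most 45.5%). For 62.6% of the 32959 mRNAs with a count, 1 library did hold over 50%. Only 3796 of those had sufficient counts for the test below, and at few counts 1 library easily holds most. The contrast is therefore bound up with the selection on abundance, and the next 900 mRNAs were not compared in this way.

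Libraries differed in which of the 100 they held at a low level. Control 2 was the lowest library for 49 of the 100, and 23 were there at under 0.5 times the median of the other 5 libraries. These 23 included the mRNAs at ranks 3, 5 and 12, and were 893 to 9016 bp long. In the next 900 mRNAs this share in control 2 was 27.1%. In igf3-dsRNA 1, 10 of the 100 were under 0.5 times the median of the others, and in the remaining libraries 1 to 5. After TMM scaling the number in control 2 was 13 and that in igf3-dsRNA 1 was 4, and control 2 was the lowest library for 28. Departures upwards, over 2 times the median of the others, numbered 2 to 6 per library, and 1 to 8 after TMM scaling, with 8 in igf3-dsRNA 1 and 6 in control 2. On that scale control 2 was also the highest library for 26 of the 100, and igf3-dsRNA 1 for 35. In CPM, 62 of the 100 departed in neither direction in any library.

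**Figure D4:**
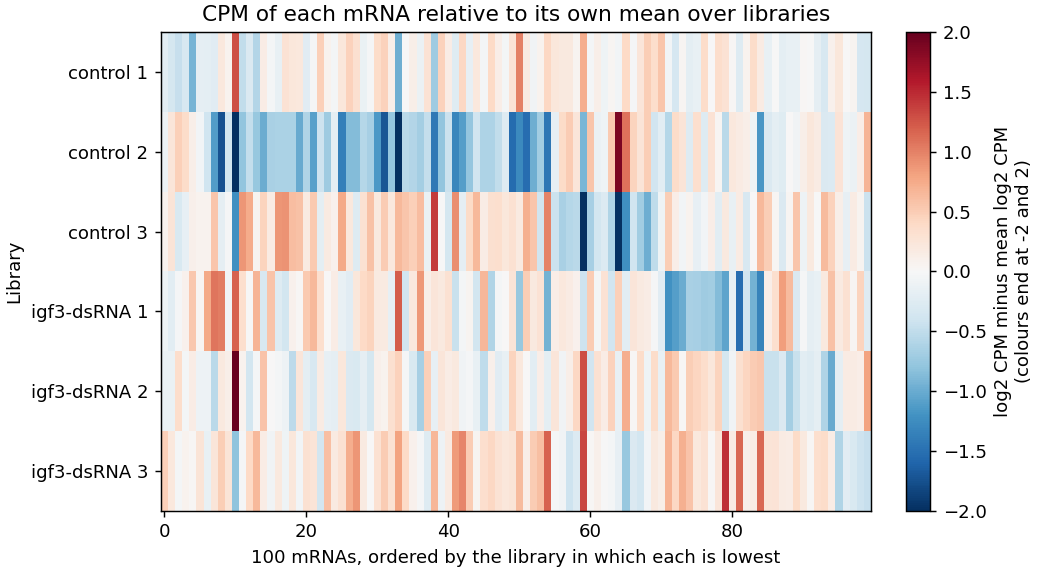
Log2 CPM of each of the 100 mRNAs minus its own mean over libraries (colour, red above and blue below the mean, ending at -2 and 2) in the 6 libraries (y axis), with the mRNAs ordered along the x axis by the library in which each is lowest. The block of 49 mRNAs lowest in control 2 is the widest.

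Across the 100 mRNAs, which are not independent replicates, Pearson's r of log2 CPM between 2 libraries was 0.63 to 0.85 for the 6 pairs within a group and 0.71 to 0.93 for the 9 pairs between groups. All pairs share the ranking that selected the mRNAs. The closest pair was control 1 and igf3-dsRNA 2, of different groups, and the least alike were control 2 and control 3, both of the control group.

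The effect of igf3-dsRNA on these mRNAs was examined in a fit over all 5843 features with sufficient counts, of which 3796 were mRNAs. By the quasi-likelihood test of edgeR, 0 of the 100 were called, which takes an absolute log2 fold change over 1 and a Benjamini-Hochberg adjusted p under 0.05 over all features. The background was 0%, since 0 of the 5843 features were called. Taking the unadjusted p in place of the adjusted one, again 0 of the 100 passed, where the background was 2.65% of the features tested. DESeq2 called 0 of the 100 as well, but its calls over all features were not counted, so this 0 has no background beside it. At the unadjusted threshold 1 of the 100 passed with DESeq2, where 3.54% of all features tested passed. The smallest unadjusted p among the 100 was 0.0513. The methods of the study name edgeR and the same limits on fold change and adjusted p, and it reported differentially expressed mRNAs and lncRNAs. Where it reports these lists, however, it gives the limit on P without saying whether P was adjusted. In the fit over all features, 155 features passed the unadjusted threshold with edgeR, of which 91 were mRNAs and 64 lncRNAs. The absence of calls at the adjusted threshold differs from that report if its lists rest on adjusted p. The sets of features tested may also be unlike. Here 5843 of the 60206 deposited features passed a filter on low counts, and the study names no such filter for its comparison of groups. The reason for any difference was not tested.

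Log2 fold changes of the 100 (igf3-dsRNA over control) ran from -0.85 to 1.32, with a median of 0.04, beside -0.02 for all features tested. Values above 0 numbered 58 of the 100, where 48.1% of all features tested were above 0. The absolute log2 fold change was under 0.5 for 90 of the 100, beside 3790 of the 5843 features and 2480 of the 3796 mRNAs tested. It was over 1 for 3 of the 100, where 12.3% of all features tested were over 1. Of the 100 most abundant lncRNAs, 76 were under 0.5 and 7 over 1. The standard errors were 0.33 to 0.95 with a median of 0.41. Differences under 1 on the log2 scale could not be called under the fold threshold. Of the 5843 features tested, 719 exceeded it and 0 were called, so larger observed differences also went uncalled with 3 libraries per group. The biological coefficient of variation estimated by edgeR had a median of 0.40 in the 100, beside 0.54 in all features tested and 0.43 in the 100 most abundant lncRNAs.

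**Figure D5:**
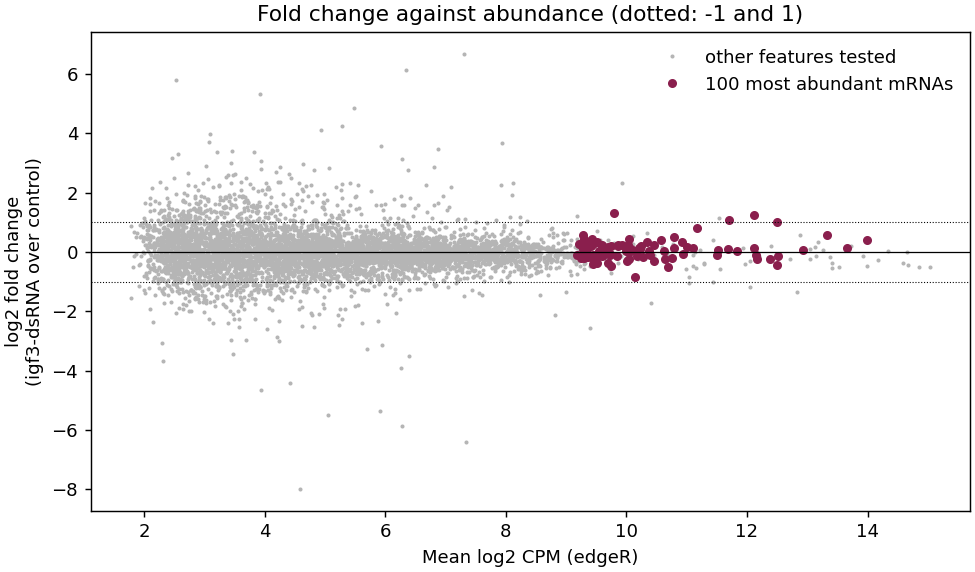
Log2 fold change of igf3-dsRNA over control (y axis) against mean log2 CPM (x axis) for the 5843 features tested, with the 100 most abundant mRNAs in dark red. Dotted lines mark -1 and 1; the 100 mRNAs lie between -0.85 and 1.32, and 3 of them lie above 1.

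In TMM-normalized CPM, 3 of the 100 had no overlap between the groups, against 6.49% of all features tested. These 3, and the 4 mRNAs of the next paragraph, were chosen after their values were seen. CAFS_CommonCarp_T_00169255, at rank 18, had 1422, 1622 and 2006 CPM after TMM scaling in the control libraries and 3993, 2122 and 2677 CPM in the treatment libraries. Every treatment library was higher than every control library, but igf3-dsRNA 2 lay close to control 3, and without TMM scaling it lay below control 3, at 2064 against 2216 CPM. Its log2 fold change was 0.80 (standard error 0.39, unadjusted p = 0.0709, adjusted p = 1.00 by the quasi-likelihood test of edgeR), and 0.51 without igf3-dsRNA 1. CAFS_CommonCarp_T_00027739, at rank 99, had 613, 465 and 404 CPM in the control and 842, 663 and 719 CPM in the treatment libraries on the same scale, a log2 fold change of 0.59 (standard error 0.35). CAFS_CommonCarp_T_00254923, the shortest of the 100 at 693 bp, was lower in each treatment library, at 776, 656 and 950.3 CPM against 615, 623 and 562 CPM. Its log2 fold change was -0.40 (standard error 0.34) and -0.26 without control 3, and without TMM scaling its groups overlapped. Without TMM scaling 3 of the 100 also had no overlap, beside 5.89% of all features tested, but the set was different. It held CAFS_CommonCarp_T_00027739, CAFS_CommonCarp_T_00134628 and CAFS_CommonCarp_T_00230873, of which only the first had no overlap on both scales. The members of this set were likewise named after their values were seen.

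The 3 mRNAs with an absolute log2 fold change over 1 all had groups that overlapped. CAFS_CommonCarp_T_00260504, which had the smallest p of the 100, was at 350.4, 157 and 1081 CPM in the control libraries and 1598, 950.4 and 1205 CPM in the treatment libraries. Control 1 and control 2 were low, whereas control 3 lay within the range of the treatment libraries. Its log2 fold change was 1.32 (standard error 0.59), and moved most without control 3, to 2.20, and without igf3-dsRNA 1, to 0.93. The highly variable CAFS_CommonCarp_T_00110191 and CAFS_CommonCarp_T_00210814 had log2 fold changes of 1.25 (standard error 0.95) and 1.09 (standard error 0.69). With each library left out, the first ranged from 0.59 (without igf3-dsRNA 2) to 2.97 (without control 1), and was 0.77 without control 2. The second ranged from 0.63 (without control 3) to 2.01 (without control 1). Among the 10 most abundant mRNAs, CAFS_CommonCarp_T_00106223 had the log2 fold change farthest from 0, 1.00 (standard error 0.52, unadjusted p = 0.0860 by the quasi-likelihood test of edgeR). With each library left out it ranged from 0.56 (without igf3-dsRNA 1) to 1.39 (without control 1), and was 0.67 without control 2.

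The study compared 20 mRNAs and 20 lncRNAs by qRT-PCR, chosen at random among those it called differentially expressed. It reports that all of them changed in the same direction as in its RNA-seq data. All 20 mRNAs were in the table, and 0 of them were among the 100 most abundant mRNAs, which made up 0.202% of all mRNA IDs. The most abundant of the 20 mRNAs, CAFS_CommonCarp_T_00088409, was at rank 106. It owed this rank largely to control 2, with 2351 CPM there and 14.1 to 588 CPM in the other libraries.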

How the data were processed

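The members and the lists were chosen with earlier results of these data known. The authors used Hisat2 for alignment to the carp genome and StringTie (1.3.3b in the submitters' processing notes) for assembly. They deposited counts of read pairs per feature, not normalized, and RPKM values per kilobase of feature. The counting program and its strand setting are not given in the sources used here. The kit for the removal of ribosomal RNA differs between the labels and the methods. The counts of the separate libraries and of the joint table differed for 0 features. Lines naming no feature stayed out of library sizes and tests: those pairs were 91.4 to 92.6% of the uniquely placed pairs of sufficient quality. Per-sample columns left unused numbered 0.

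CPM was computed from the counts on all features. Feature lengths came from the ratio of count to RPKM, as the lengths that were whole in every library within 0.001 bp. The scale of RPKM matched the clean single reads that the study lists per library, mapped or not, whereas the counts are of pairs on features. RPKM values are therefore low beside CPM. They are printed as deposited and used only to order mRNAs and to obtain lengths. Groups were compared with edgeR 4.0.16 (R 4.3.3): filterByExpr, TMM, quasi-likelihood test, p adjusted by Benjamini-Hochberg across the whole table. The standard error is the one implied by the F statistic. Shares were compared by exact permutation of the libraries. Named mRNAs were the 10 most abundant, the 3 steadiest and the 3 most variable by coefficient of variation, the 3 on each side of the limit of the list, the 3 highest in RPKM, and up to 2 per direction with an unadjusted p under 0.05, an absolute log2 fold change over 1 and no overlap (0 met this). Some further mRNAs were named after their values were seen. Alternatives were DESeq2 1.42.0, library sizes without factors, RLE factors, at least 10 counts in each library, no filter, mRNAs alone, a replicate block, other rankings and each library left out.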

Additional observations from a re-analysis of the deposited data

How the results depend on the processing

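No mRNA of the 100 was called in any of the 13 alternative fits. Calls over all features were not counted in these fits, so the 0 does not set the 100 apart from other features. The median log2 fold change of the 100 stayed between -0.05 and 0.11. The number at an unadjusted p under 0.05 with an absolute log2 fold change over 1 was 0, and became 3 without a filter on low counts (2.55% of all features tested), 1 with at least 10 counts in every library (2.46%), 1 with DESeq2 (3.54%), and 0 to 3 with each library left out (3 without control 1, beside 3.26%, and 2 without control 3, beside 3.67%). With the replicate block it was 2 (2.52%). The replicate numbers were not used as a pairing in the main fit. Between libraries numbered 1, 2 and 3, deviations from the group means correlated at 0.01, -0.001 and 0.10 over all features tested. Over the 100 mRNAs they correlated at -0.10, 0.19 and 0.34. The value for the libraries numbered 3 was the highest of all pairs between groups in both sets. With 3 libraries per group such values cannot exclude a pairing. Control 2 correlated best with igf3-dsRNA 1 over all features and with igf3-dsRNA 2 over the 100, where control 1 correlated best with igf3-dsRNA 2. Groups without overlap were found for 3 of the 100, for 4 without a filter (4.09% of all features tested), for 5 with at least 10 counts in every library (5.86%), and for 7 to 13 with each library left out, where 14.7 to 18.6% of all features tested did not overlap. Of the 13 other rankings, 12 kept 90 to 97 of the 100 and mean RPKM kept 65. The difference in the share of counts was 1.44 to 3.42 percentage points with each library left out. The 7 named fold changes kept their sign in every fit, but were chosen after their values were seen. The choice took groups without overlap, an absolute log2 fold change over 1, or the largest change among the 10 most abundant. A kept sign was therefore likely from the choice itself. The cause of the shifts between fits was not tested. Counting error alone was a coefficient of variation of at most 4.81% for the 100. Each comparison of groups rested on at most 3 libraries per group, and what limited the comparisons was not tested.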
